A study of Yarrowia lipolytica with 9 samples.

Results

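Mhy1 (YALI0B21582g) and Hoy1 (YALI0A18469g) are transcription regulators of the switch from yeast cells to hyphae in *Yarrowia lipolytica*, an oil-storing yeast. Their loci were chosen by locus tag, and both were present among the 6170 gene rows of the expression table. The RNA came from bioreactor cultures of strain W29, a wild-type isolate, sampled at hour 50. Medium pH was controlled at 2.0 in 3 cultures, at 4.0 in 3 and at 6.0 in 3. No deletion, transgene or added agent separates the groups, which share a medium of 50 g/L glucose, 1.7 g/L yeast nitrogen base, 1.5 g/L yeast extract and 1 g/L ammonium sulfate. The study asked how medium pH bears on citric acid and lipid production. Cell shape is not recorded in the labels or the table.

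The fungus grows as single budding cells or as septate filaments, and the pH of the medium is among the conditions known to shift the balance between these forms. Mhy1 is a zinc finger protein of the C2H2 type, and its transcript is known to increase when yeast cells begin to form hyphae. Hoy1 is a homeodomain protein. Strains of this species that lack either gene grow as yeast cells and fail to form hyphae. The table does not pair locus tags with names, so the names and roles given here are background knowledge.

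The libraries held 12974822 to 17701766 reads. Values are in CPM, counts per 1000000 reads of the effective library, so a gene is compared with itself across libraries. Gene lengths are not used here, so the levels of Mhy1 and Hoy1 are not ranked against each other. Replicates of a group correlated at a mean r of 0.986 to 0.997 on the log2 scale. The groups are taken as separate cultures because the labels speak of triplicate bioreactors. In these bulk cultures, fewer cells of a form and less RNA per cell cannot be told apart.

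Between pH 2.0 and pH 4.0 the 2 regulators moved in opposite directions, and both had higher means at pH 6.0 than at pH 4.0. Hoy1 transcripts rose at each step, to 335 ± 25.5 CPM at pH 6.0, against 179 ± 17.1 CPM at pH 2.0 (SD, n = 3 each). The first of these steps was not called with libraries scaled to equal totals or by quantile normalization. Mhy1 transcripts were lower at pH 4.0, at 28.05 ± 6.45 CPM, than at pH 2.0, at 39.4 ± 3.52 CPM. At pH 6.0 they stood at 34.9 ± 4.02 CPM, and neither difference of that group from the others passed the test. In moderated F tests of limma over the 3 pH values, Hoy1 had an adjusted p of 0.000116 and Mhy1 one of 0.0352, and 84.0% of the 6165 genes tested passed the same threshold of 0.05. Larger F values than that of Hoy1 were found for 32.7% of genes, and larger ones than that of Mhy1 for 82.0%.

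**Figure D1:**
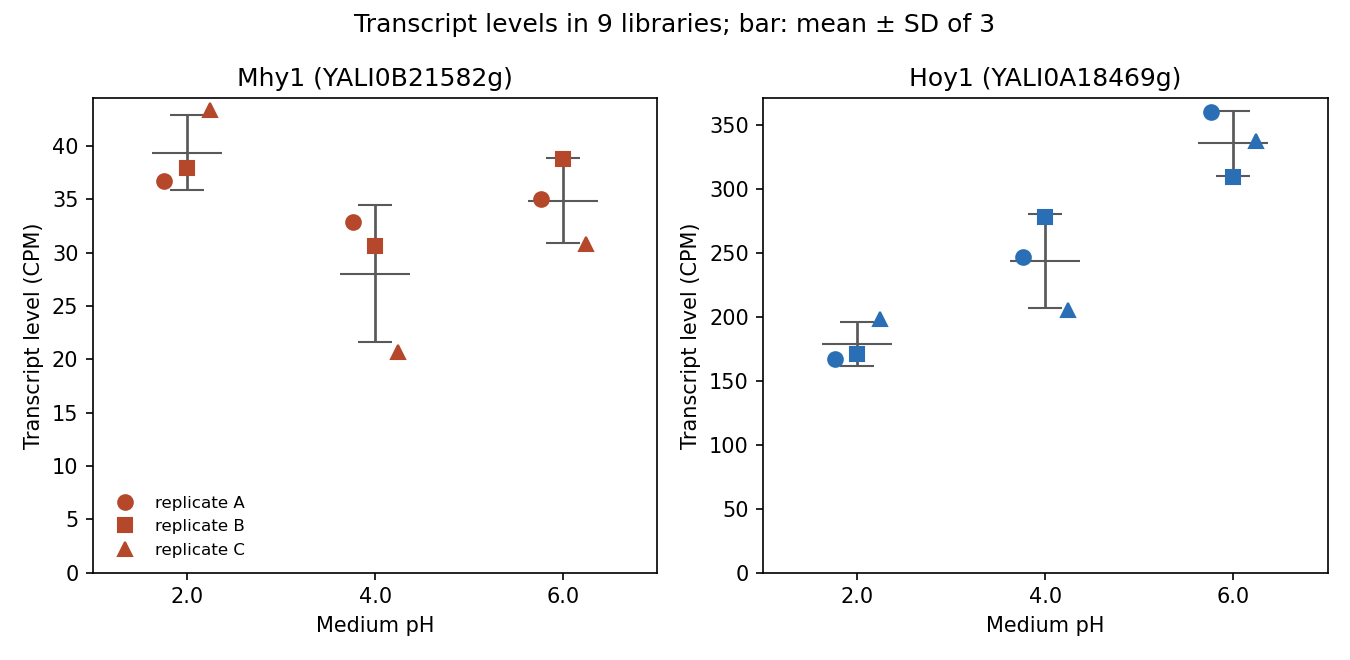
Transcript level in CPM (y axes from 0) of Mhy1 (left) and Hoy1 (right) against medium pH; points are single libraries, shaped by replicate, and the horizontal line and bars are the mean and SD of 3. The Hoy1 groups do not overlap under the deposited scaling, at 167 to 198, 205 to 278 and 309 to 360 CPM from pH 2.0 to 6.0. Such an order without overlap was found for 11.6% of genes tested. Mhy1 has its lowest mean at pH 4.0, where its 20.7 to 32.8 CPM overlap the 30.8 to 38.8 CPM at pH 6.0.

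Hoy1 was at 167, 171 and 198 CPM at pH 2.0 in replicates A, B and C. At pH 4.0 it was at 246, 278 and 205 CPM, and at pH 6.0 at 360, 309 and 337 CPM. Each group thus lay wholly above the one before it, although replicate C at pH 4.0 was close to replicate C at pH 2.0. Groups in this order without overlap were found for 11.6% of the genes tested. Pairs of groups did not overlap in 77.9% of genes for pH 6.0 against 2.0, in 67.6% for pH 4.0 against 2.0 and in 62.2% for pH 6.0 against 4.0. The reads behind these values numbered 2521 to 6056 per library, and the SD between replicates was 5.15 to 8.74 times the SD that counting alone gives.

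Hoy1 rose between pH 6.0 and pH 2.0 by a log2 fold change of 0.91 (SE 0.11, 95% interval 0.65 to 1.16, adjusted p = 3.83e-05), a 1.87-fold difference. Tests of single genes are limma's on log2(CPM + 1), two-sided, with Benjamini-Hochberg adjustment over 6165 genes. Of the genes tested, 73.0% were called in this comparison, 35.1% as higher, and 25.2% changed by more than Hoy1 in absolute terms. The call held in each of the 21 alternative analyses, where the log2 fold change lay between 0.62 and 0.98.

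Hoy1 also rose between pH 4.0 and pH 2.0, with a log2 fold change of 0.44 (SE 0.11, limma adjusted p = 0.00660), in a comparison that called 63.4% of genes and 30.8% as higher. This step depended on the scaling of the libraries. Under equal totals its log2 fold change was 0.23 (adjusted p = 0.0868), and under quantile normalization 0.24 (adjusted p = 0.0948), so that the call was lost in both. With equal totals, pH 4.0 spanned 203 to 268 CPM, overlapping pH 2.0 at 184 to 219 CPM.

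Hoy1 rose again between pH 6.0 and pH 4.0, with a log2 fold change of 0.47 (SE 0.11, limma adjusted p = 0.00610), against a background of 51.5% of genes called and 25.7% called as higher. Under the deposited scaling the second step minus the first was 0.03 on the log2 scale (95% interval -0.40 to 0.47, adjusted p = 0.897). It was 0.23 under equal totals and 0.13 under quantile normalization, and was not called in either. Genes called higher at both steps under the deposited scaling made up 9.44% of those tested, and Hoy1 was among them. Under equal totals and under quantile normalization Hoy1 was called higher at the second step only.

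**Figure D2:**
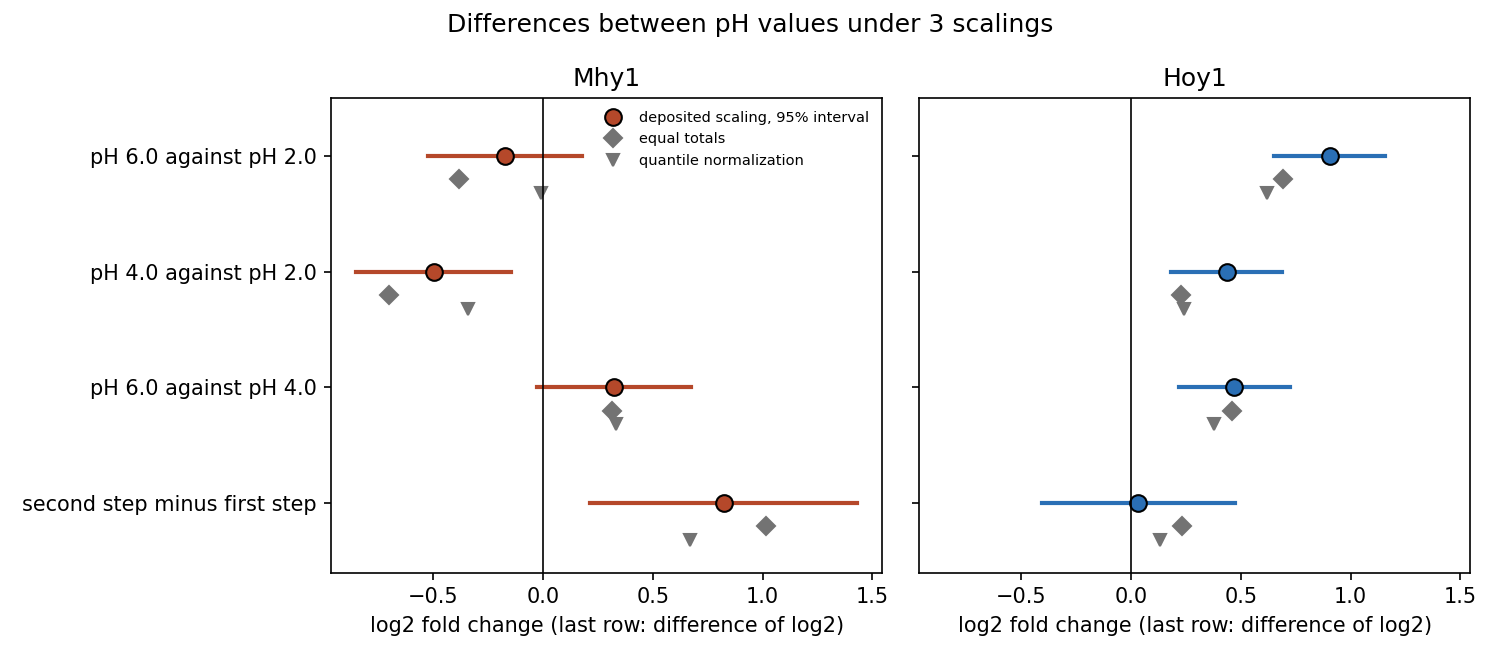
Log2 fold changes (x axis) of Mhy1 (left) and Hoy1 (right) for the 3 pairs of pH values and, in the last row, the difference between the steps from pH 4.0 to 6.0 and from 2.0 to 4.0; coloured points with lines are estimates under the deposited scaling with 95% intervals, and grey symbols are estimates under equal totals and quantile normalization. Hoy1 lies above 0 in the 3 pairs under every scaling shown, whereas the Mhy1 value for pH 6.0 against pH 2.0 runs from -0.38 to -0.01.

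Mhy1 was at 36.8, 38.0 and 43.4 CPM at pH 2.0 in replicates A, B and C. At pH 4.0 it was at 32.8, 30.6 and 20.7 CPM, and at pH 6.0 at 35.0, 38.8 and 30.8 CPM. The pH 4.0 libraries all lay below the pH 2.0 libraries, while the pH 6.0 group overlapped both of the others. Replicate C at pH 4.0 was the lowest of the 9 libraries, with 266 reads against 441 to 771 in the others. That library was also the lowest of its group for Hoy1. Over all genes its median absolute log2 deviation from its group mates was 0.13, against 0.15 for pH 4.0 replicate A and 0.12 for replicate B. The lowest such deviation of the 9 libraries was 0.08. Replicate C at pH 4.0 also had the fewest reads in total, at 12974822.

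Between pH 4.0 and pH 2.0, Mhy1 fell, with a log2 fold change of -0.50 (SE 0.16, 95% interval -0.85 to -0.15, adjusted p = 0.0181), a level 0.708 times that at pH 2.0. In this comparison 32.6% of genes were called as lower, and in 67.6% the groups did not overlap. The value was -0.30 without pH 4.0 replicate C (adjusted p = 0.0476), and the call was lost without pH 2.0 replicate C (log2 -0.43, adjusted p = 0.0620) and under quantile normalization (log2 -0.34, adjusted p = 0.0883).

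For pH 6.0 against pH 2.0, Mhy1 had a log2 fold change of -0.17 (SE 0.16, 95% interval -0.52 to 0.18, adjusted p = 0.346) and was not called. Without single libraries the value ran from -0.25 (without pH 6.0 replicate B) to -0.09 (without pH 6.0 replicate C), and it was not called in any of these fits. Under equal totals it was called lower (log2 -0.38, adjusted p = 0.0338), with 29.3 to 36.7 CPM at pH 6.0 against 40.6 to 48.0 CPM at pH 2.0. The median gene stood at -0.25 under that scaling and at -0.04 under the deposited one, so Mhy1 lay below the median gene by a like amount in both. Genes not called here but called lower at pH 4.0 against pH 2.0, as Mhy1 was, made up 5.77% of those tested.

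For pH 6.0 against pH 4.0, Mhy1 had a log2 fold change of 0.32 (SE 0.16, 95% interval -0.03 to 0.68, adjusted p = 0.109) and was not called. The value depended on single libraries, with 0.13 without pH 4.0 replicate C (adjusted p = 0.382) and 0.45 without pH 4.0 replicate A (adjusted p = 0.0489). The difference between the steps was 0.82 (SE 0.27, 95% interval 0.21 to 1.43, adjusted p = 0.0290), and 50.4% of genes passed that test, 26.1% with a positive sign. The call was lost under quantile normalization, and also without pH 2.0 replicate C, pH 4.0 replicate C (0.43), pH 6.0 replicate A or pH 6.0 replicate B. The F test of Mhy1 missed the threshold without pH 2.0 replicate B, pH 2.0 replicate C, pH 4.0 replicate C or pH 6.0 replicate A, and under quantile normalization.

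The spread between replicates of both genes rested in part on pH 4.0 replicate C. The residual SD on the log2 scale was 0.23 for Mhy1 and 0.16 for Hoy1, with a median of 0.13 over all genes, and without that library it was 0.13 for Mhy1 and 0.12 for Hoy1. At pH 2.0 the coefficient of variation was 8.94% for Mhy1 and 9.55% for Hoy1. Counting error was the smaller part of the Mhy1 spread: the SD between replicates was 2.26 times the counting SD at pH 2.0, 4.54 times at pH 4.0 and 2.68 times at pH 6.0.

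The balance of the pair was also read within each library, as a ratio that a common scaling factor for that library cannot change. The deposited scaling and equal totals are of that kind, and quantile normalization is not. With quantile normalization the log2 fold changes for pH 6.0 against pH 2.0 were -0.01 for Mhy1 and 0.62 for Hoy1. They were -0.17 and 0.91 under the deposited scaling. The ratio was not tested under quantile normalization. Its absolute size depends on the lengths of both genes, so only its change across pH is described. At pH 2.0 there were 4.54, 4.50 and 4.57 Hoy1 reads for each Mhy1 read in replicates A, B and C. At pH 4.0 there were 7.50, 9.09 and 9.90, and at pH 6.0 there were 10.3, 7.96 and 10.9. All 6 libraries of the less acid media lay above the 3 libraries at pH 2.0, and the groups at pH 4.0 and 6.0 overlapped. How often ratios of other genes separate in this way was not computed. The levels of single genes did not overlap in 67.6% of genes for pH 4.0 against 2.0, and in 77.9% for pH 6.0 against 2.0.

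**Figure D3:**
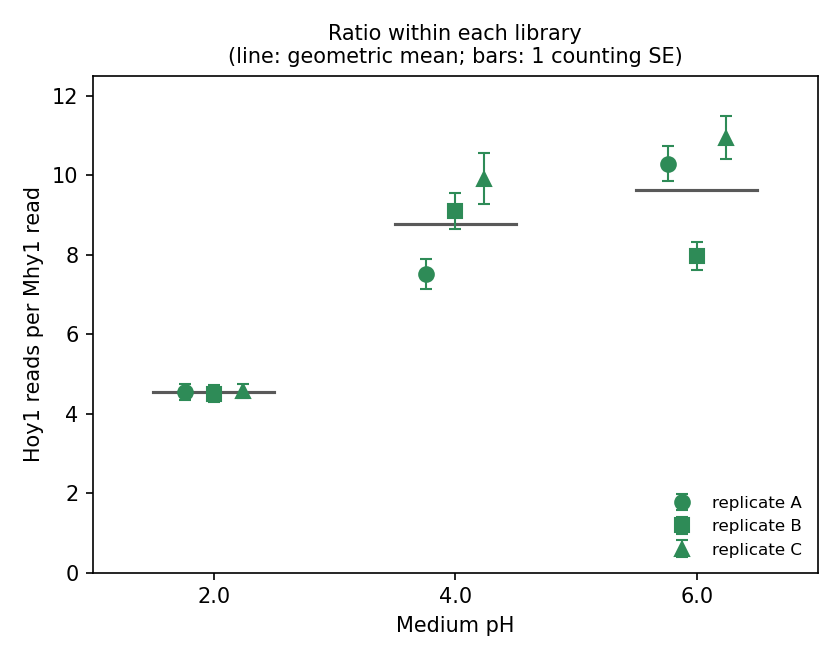
Hoy1 reads per Mhy1 read (y axis, from 0) in each of the 9 libraries against medium pH; points are libraries with 1 standard error from counting, and lines are geometric means. The 3 libraries at pH 2.0 sit between 4.50 and 4.57, below all 6 libraries at pH 4.0 and 6.0, which run from 7.50 to 10.9.

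The geometric mean of this ratio was 4.54 at pH 2.0, 8.77 at pH 4.0 and 9.64 at pH 6.0. The log2 ratio of Mhy1 to Hoy1 was tested by exact permutation over the 1680 assignments of libraries to 3 groups, two-sided. This permutation test gave p = 0.0179, where the smallest value possible is 0.00357. Ratios of other genes were not tested, so the share that would pass is not known, and 84.0% of single genes passed the F test over pH. For single pairs of groups, 3 libraries against 3 cannot give less than 0.1. The log2 ratio differed by -1.09 between pH 6.0 and pH 2.0 and by -0.95 between pH 4.0 and pH 2.0, each with an exact permutation p of 0.1 (0.15 adjusted over the 3 pairs). The difference for pH 6.0 against pH 4.0 was -0.14 (exact permutation p = 0.5, adjusted 0.5). It was in the first step that limma called Hoy1 higher and Mhy1 lower under the deposited scaling. In that step only Mhy1 was called under equal totals, and neither gene under quantile normalization.

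At pH 2.0 the 2 transcripts kept 1 ratio between replicates: replicate C was the highest for both genes, and the SD of the log2 ratio was 0.01. This is below the 0.06 that counting error alone gives for a single library, so the closeness of these 3 values says nothing finer than that error. At pH 4.0 and pH 6.0 the SD of the log2 ratio was 0.20 and 0.24, above the counting errors of 0.08 and 0.07.

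Another 9 regulators with known locus tags were set beside the pair; the list was written with earlier results of these data known. For pH 6.0 against pH 2.0, 7 of the 9 were called higher and 2 lower, with a median log2 fold change of 0.79 against -0.04 for all genes, of which 73.0% were called and 35.1% called higher. Hoy1, at 0.91, was on the side of the 7, and Mhy1 was not called. Between pH 6.0 and pH 4.0, 7 were called higher, none lower and 2 were not called, with a median of 0.54 against -0.0033 for all genes, of which 51.5% were called and 25.7% called higher. Between pH 4.0 and pH 2.0, 4 were called higher and 2 lower, but only 1 higher and 2 lower under equal totals, and 2 higher and 2 lower under quantile normalization. The 6 calls of 9 in that comparison are near the background of 63.4% of all genes called, 30.8% higher and 32.6% lower.

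Of these, Rim101 (YALI0B13640g), which controls the response to ambient pH, was at 738 ± 45.8 CPM at pH 6.0 and 181 ± 3.16 CPM at pH 2.0 (SD, n = 3 each; log2 2.02, SE 0.07, limma adjusted p = 4.60e-09). Its second step exceeded its first by 0.96 (adjusted p = 0.000314); whether this differs from Hoy1 was not tested. Hac1 (YALI0B12716g), which drives the unfolded protein response, fell to 125 ± 6.33 CPM at pH 6.0, against 466 ± 76.9 CPM at pH 2.0 (log2 -1.88, SE 0.10). Most of that fall was in place at pH 4.0, at 144 ± 6.08 CPM (log2 -1.67 against pH 2.0, SE 0.10). It shares with Mhy1 a lower level at pH 4.0 than at pH 2.0, and its log2 fold change for pH 6.0 against pH 4.0 was -0.20 (limma adjusted p = 0.125, not called).

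Yas1 and Yas2 are helix-loop-helix activators of alkane genes that act as a pair, and their transcripts moved apart. Yas2 (YALI0E32417g) was higher at pH 6.0, at 357 ± 4.74 CPM, than at pH 2.0, at 207 ± 16.4 CPM (log2 0.79, SE 0.08). Yas1 (YALI0C02387g) was lower at pH 6.0, at 12.7 ± 2.17 CPM (log2 -0.88 against pH 2.0, SE 0.16). It was already lower at pH 4.0, at 13.8 ± 2.66 CPM, than at pH 2.0, at 24.1 ± 2.74 CPM (log2 -0.77, SE 0.16). Between pH 6.0 and pH 4.0, Euf1 (YALI0F01562g), a regulator of erythritol use, rose by 0.80 (SE 0.11), and Mig1 (YALI0E07942g), a glucose repressor, by 0.87 (SE 0.13). Both gains exceed the 0.47 of Hoy1 as estimates, without a test of the difference.

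**Figure D4:**
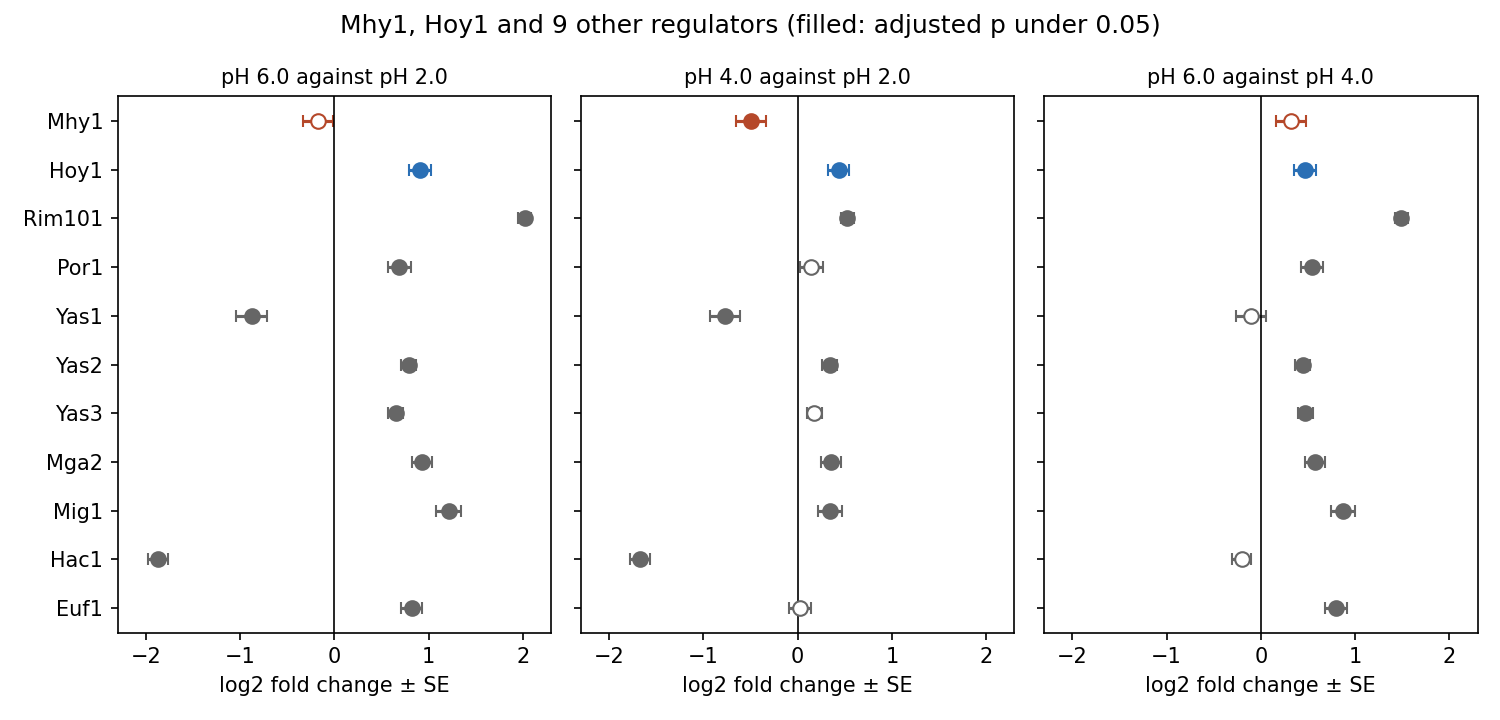
Log2 fold changes with standard errors (x axis) of Mhy1, Hoy1 and 9 other regulators in the 3 comparisons of pH values; filled points passed an adjusted p of 0.05 and open points did not. Hoy1 is filled and above 0 in all 3 panels, and Mhy1 is filled only at pH 4.0 against pH 2.0, at -0.50.

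The list of the ambient pH response had 3 loci, of which Rim101 and the acid extracellular protease Axp1 (YALI0B05654g) had a row. Both were called higher at each step, under the deposited scaling, equal totals and quantile normalization; of all genes, 9.44% were called higher at both steps under the deposited scaling. Axp1 averaged 657 ± 151 CPM at pH 6.0 and 8.98 ± 2.52 CPM at pH 2.0 (SD, n = 3 each; log2 6.05, SE 0.25), a larger difference than that of either hyphal regulator in any of the 3 comparisons.

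Across the 9 libraries, which fall into 3 pH groups, the profiles of Mhy1 and Hoy1 had a Pearson correlation of -0.08 on the log2 scale, which was -0.18 under equal totals and 0.26 under quantile normalization. Among 5344 other genes with a mean of at least 10 CPM, 52.2% were at least as close to Hoy1 as Mhy1 was. The genes most like Hoy1 were YALI0A15488g (r = 0.98) and YALI0F06776g (r = 0.97, but 0.83 under quantile normalization), and 5.91% of genes exceeded r = 0.9 with it. YALI0A15488g was at 961 ± 148, 1567 ± 295 and 2872 ± 40.9 CPM from pH 2.0 to pH 6.0, the same ascending order.

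Few genes were close to Mhy1 library by library: 7 of the 5344, or 0.131%, exceeded r = 0.9. The share of genes with as few was not computed, and 82.0% of genes had a larger F value than Mhy1. Its calls over pH, lower at pH 4.0 against 2.0 and none at pH 6.0 against 2.0, were found in 5.77% of genes tested. The closest genes by r were YALI0E03322g (r = 0.95, but 0.87 under quantile normalization) and YALI0F03619g (r = 0.94). YALI0E03322g was at 59.7, 52.0 and 64.7 CPM in replicates A, B and C at pH 2.0, at 45.6, 43.0 and 25.7 CPM at pH 4.0 and at 44.4, 48.1 and 37.8 CPM at pH 6.0. Like Mhy1, it was lowest in replicate C at pH 4.0, so the likeness includes the spread between replicates. These correlations are descriptions over libraries that share their pH groups and depth, and the table gives no function for these loci.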

How the data were processed

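RNA-seq libraries of *Y. lipolytica* W29 at 3 medium pH values were analysed, 3 per pH, 101 cycles from stranded TruSeq libraries per the labels' protocols. Per the file headers, the deposited signal is gene counts as CPM, which the authors scaled with edgeR to effective library sizes. The submitters' processing notes name edgeR, HTSeq, TopHat2 2.0.10, Trimmomatic 0.30 and bcl2fastq 1.8.4. Their roles and the build, annotation and filters are not given there, nor whether counting used strand, so overlapping or antisense genes are uncertain. All values (100%, tolerance 0.01 reads) were whole multiples of 1 read; equal totals and the edgeR and DESeq2 fits use the whole reads so recovered.

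The filter kept 6165 genes that reached 1 CPM in 3 or more libraries and removed 5, neither member among them. limma (3.58.1) in R 4.3.3 was fitted to log2(CPM + 1), with trended variance, 1 mean per pH and 6 residual degrees of freedom; the added 1 shrinks the changes of weakly expressed genes. A call is an adjusted p under 0.05. The table had been planned for as CPM, and its unit was recorded as a signal because column sums differ; the test was kept. The code was tested on simulated data.

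The members, lists and tests were chosen with earlier results of these data known. Genes named beside the members are the 9 regulators (up to 3 called per comparison with the smallest adjusted p), the 3 ambient pH loci, the 2 genes most alike by Pearson r, and the locus tags next in number. The reference table of 8689 genes matched 0 identifiers, so no coordinates or sequences are given. The alternatives covered the pseudocount (0.25, 5), the filter (none, 10 CPM), equal totals, quantile normalization, a replicate block, no trend, fits of the groups compared, edgeR (4.0.16), DESeq2 (1.42.0), an adjusted p of 0.01, and leaving out each library.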

Additional observations from a re-analysis of the deposited data

How the results depend on the processing

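The direction and call of Hoy1 for pH 6.0 against 2.0 and 6.0 against 4.0, and its F test, held under all alternatives run. Under equal totals, Hoy1 for pH 4.0 against 2.0 was 0.23 and not called, and Mhy1 for pH 6.0 against 2.0 was -0.38 and called. Under quantile normalization the values were 0.24 for Hoy1 and -0.34 for Mhy1 at pH 4.0 against 2.0, and 0.67 for the Mhy1 step difference, none called, with an F test adjusted p of 0.110. At a threshold of 0.01, Mhy1 kept no call (-0.50 at pH 4.0 against 2.0; step difference 0.82; F test 0.0352). Equal totals moved the median gene to -0.25 for pH 6.0 against 2.0 and -0.22 for pH 4.0 against 2.0, and the higher genes as a share of those called to 33.6% and 30.6%, against 48.1% and 48.6% under the deposited scaling; the cause was not tested.

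Without single libraries, Mhy1 ran from -0.25 to -0.089 for pH 6.0 against 2.0, from -0.62 to -0.30 for pH 4.0 against 2.0, from 0.13 to 0.45 for 6.0 against 4.0, and from 0.43 to 1.07 for the step difference, with F test values from 0.0175 to 0.0857. The Hoy1 step difference, never called, ran from -0.20 to 0.24. Without a call in any of these fits, 5 values had another sign: under equal totals Por1 was at -0.061, Yas3 at -0.031 and Euf1 at -0.17 for pH 4.0 against 2.0, and under quantile normalization Yas3 was at -0.13 and YALI0A18425g at 0.19. Without single libraries Euf1 ran from -0.086 to 0.096 there, and Yas1 from -0.24 to 0.030 for pH 6.0 against 4.0.

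Replicate letters were shared between groups, but same-letter libraries did not deviate together: r was -0.20 to 0.27 over 9 pairs, with 3 over 0.1, and a library correlated best with its own letter in 5 of 18 checks. With the letters as a replicate block, the permutation p of the Mhy1 to Hoy1 ratio over the 3 pH values was 0.0833, and 4430 genes were called for pH 6.0 against 2.0; no limma call of either gene changed. Without single libraries, and without the block, the p of the ratio ran from 0.00714 to 0.0357. Single pairs of the ratio could pass no threshold at this sample size, so their stability was not assessed.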

Other observations

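Locus tags in this genome carry a chromosome letter and a number that runs along the chromosome, so the tags next in number give the measured loci listed beside each regulator; distances and strands were not used here. Next to Mhy1, YALI0B21560g fell at both steps, with 50.1 ± 2.37 CPM at pH 2.0, 23.6 ± 3.79 CPM at pH 4.0 and 17.1 ± 0.413 CPM at pH 6.0 (SD, n = 3 each; log2 -1.50 for pH 6.0 against 2.0, SE 0.11, limma adjusted p = 8.35e-07). On its other side, YALI0B21604g had its highest mean at pH 4.0, where Mhy1 had its lowest: 85.5 ± 12.4 CPM, against 66.7 ± 1.37 CPM at pH 2.0 (SD, n = 3 for both; difference 0.35 on the log2 scale, limma adjusted p = 0.0131). With equal totals that difference was 0.14 and not called. The difference between the steps was -0.83 for YALI0B21604g (limma adjusted p = 0.00376), 0.62 for YALI0B21560g (adjusted p = 0.0182) and 0.82 for Mhy1. Neither locus had its lowest mean at pH 4.0, as Mhy1 had.

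Next to Hoy1, YALI0A18425g was at 18.6 ± 2.79 CPM at pH 6.0 and 10.8 ± 2.46 CPM at pH 4.0 (SD, n = 3 each; log2 0.75, SE 0.18, limma adjusted p = 0.00583), with no call between pH 4.0 and pH 2.0. YALI0A18524g, a weakly measured locus, rose to 6.80 ± 0.317 CPM at pH 6.0, against 3.45 ± 0.491 CPM at pH 2.0 (log2 0.81, SE 0.14, adjusted p = 0.000436). At such low levels the size of this value depends on the processing, with 0.48 at a pseudocount of 5, 0.94 at one of 0.25 and 1.13 under quantile normalization. Both loci were higher at pH 6.0 than at pH 4.0, as Hoy1 was, in a comparison that called 25.7% of genes as higher.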
